A study of Homo sapiens with 4 samples.

Results

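Panc1 is an established line of human pancreatic ductal carcinoma cells, and the data compare 3 gemcitabine-resistant clones that came from 1 selection of it. The comparison set the array of clone GR3 against the arrays of clones GR1 and GR4, so that the gap between GR1 and GR4 served as the yardstick and the array of the parental line showed on which side a change lay. It used 3 of the 4 arrays of the series for the comparison itself. Per the labels, the selection ran for 2 months, with the drug raised from 2 ng/ml to 30 ng/ml, all cells grew in medium with 10% serum, and the resistant cells were then cloned by limiting dilution. GR1, GR3 and GR4 therefore share the parental line, the drug and the selection, and the parental array holds cells without gemcitabine. The treatment label numbers the clones otherwise, with a GR2 and no GR4, and the sample titles, which match the design text, were followed here. Each clone is 1 cell line on 1 array, with no second array of any of them, so differences between clones and differences between arrays cannot be told apart.

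Gemcitabine is a deoxycytidine analogue that enters cells through nucleoside transporters and is phosphorylated by deoxycytidine kinase before it blocks DNA synthesis. Cells that survive a stepwise selection need not be alike, because a carcinoma line is a mixture of subclones that differ in chromosome number and in gene expression, and each limiting-dilution clone grows from a single cell. Clones of 1 selection can thus share what the drug selected and still differ in traits that their founder cells carried.

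Transcripts were measured on Toray 3D-Gene arrays with 1 dye. A value is the authors' deposited signal in units, scaled so that each array has a median of 25 units. Of 24460 gene probes, 91.5% to 93.7% had a value on each of the 4 arrays, and 21885 had one on all 3 clones. These probes stand for 16024 genes, and each gene was read from its brightest probe. With so few arrays, their number sets the precision. Of the markers of a ductal carcinoma line, 7 of the 7 measured were above 25 units on every array, with KRT18 at 23820 units in GR1, 28782 in GR3 and 20862 in GR4. Of the markers of leukocytes, endothelium, fibroblasts and pancreatic acinar or endocrine cells, at most 3 of a list reached 25 units on any array.

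The first question was how far GR3 lay from the other clones. Between GR1 and GR4, 176 genes (1.1%) were at least 2-fold apart. GR3 was at least 2-fold from GR1 in 446 genes (2.78%) and from GR4 in 480 genes (3.00%). The SD of the log2 difference over all genes was 0.29 for GR1 against GR4, and 0.41 for GR3 against either of them. GR3 was thus the odd clone of the 3, although all pairs of clones were closer to each other than any clone was to the parental array, from which 1839 to 2335 genes were at least 2-fold away. The contrast was sharpest where signals were strong. In the brightest group of 4006 genes, from 128 units upward, 5 genes were 2-fold apart between GR1 and GR4, against 69 for GR3 and GR1 and 60 for GR3 and GR4. In the dimmest group of equal size, up to 9.15 units, the counts were 153, 213 and 289.

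A gene was then called apart where GR3 lay at least 2-fold above both, or at least 2-fold below both, of the other clones, and where its log2 distance to the nearer clone was larger than the gap between them. GR3 was apart in 237 of 16024 genes (1.48%), above both in 176 (1.1%) and below both in 61 (0.381%). The same rule singled out GR1 in 30 genes and GR4 in 63. For GR4 most were lower than in both other clones (55 of 63), whereas for GR3 most were higher. The excess of higher genes belonged to dim ones. In the dimmest group 86 were above and 14 below, and in the brightest group 21 were above and 22 below. With at least 25 units on all 3 clones, 72 genes were apart, 40 above and 32 below. Of the genes apart 27 had further probes, 28 in all, and 19 of these probes were apart in the same direction while 2 had the opposite sign.

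**Figure D1:**
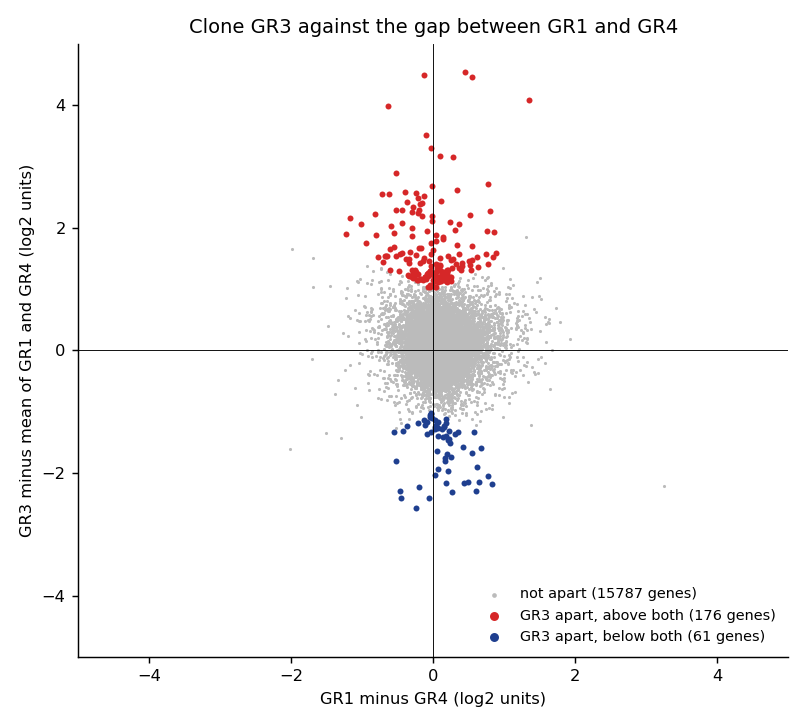
Each point is 1 of 16024 genes, with the log2 difference between GR1 and GR4 on the horizontal axis and that between GR3 and the mean of GR1 and GR4 on the vertical axis (1 array a clone). The 176 red genes reach 4.55 above 0 and the 61 blue genes 2.57 below 0, while most genes sit near the centre on both axes.

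As a test, limma was fitted to GR3 against GR1 and GR4, with GR3 assumed to vary like them. A probe's own measure of spread is only the gap between GR1 and GR4, with 1 residual degree of freedom. limma moderates it with a prior pooled over all probes, which had 3.55 degrees of freedom. The fit called 0 of 21885 probes (0%) at an adjusted p of 0.05. The smallest adjusted p was 0.0673, and 2737 probes had an unadjusted p under 0.05, among them the probes of all 237 genes apart. The count depended on how limma modelled the spread. With a variance prior that follows the signal, 994 probes (4.54%) passed, 611 of them higher in GR3, and 198 of the 237 genes apart were among the genes that passed. Limited to probes with at least 25 units, 555 passed, 332 of them higher. The rule for genes apart and limma both read the same differences between clones, set against the same gap between GR1 and GR4. That the 237 genes apart had small p-values, and that 198 of them passed, is thus no independent evidence for them. GR1 and GR4 are different clones, so the p-values measure the spread between these samples only. Sizes are given with the standard error (SE) of the limma fit. Such an SE leans more on the pooled prior than on the gene's own gap, so it is not a precision measured for that gene.

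Most of the genes farthest above both clones had low signals in GR1 and GR4. FGF13, a fibroblast growth factor family member that stays inside the cell and binds sodium channels, was at 8.83 units in parental cells, 3.10 in GR1, 73.2 in GR3 and 3.41 in GR4. It was 21.5-fold above the nearer clone, with a log2 difference from the mean of GR1 and GR4 of 4.49 ± 0.17 (SE). GR3 was above the parental array and both other clones were below it. ARMCX1, which binds mitochondria and takes part in their transport in neurons, read 11.2 units in parental cells, 2.46 in GR1, 45.2 in GR3 and 1.69 in GR4. TUBA1A, an alpha-tubulin most abundant in neurons, read 100.05, 26.2, 260.3 and 26.8 units on the same 4 arrays. NMU, the secreted peptide neuromedin U, read 205, 74.8, 419 and 85.6 units. These genes straddled the parental level, and so did MAGEA1 and CSAG1. They were the 6 genes apart whose GR3 signal lay at least 2-fold on one side of the parental array with both other clones at least 2-fold on the other.

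MMP12, the macrophage elastase, kept part of its parental signal in GR3 alone. It was at 232 units in parental cells, 1.72 in GR1, 34.5 in GR3 and 1.26 in GR4. CALB1, the calcium buffer calbindin, was at 408 units in parental cells and 271 in GR3, but at 42.0 in GR1 and 42.8 in GR4. FABP6, an ileal bile acid-binding protein, was at 14.3 units in parental cells, 2.42 in GR1, 19.7 in GR3 and 2.00 in GR4. In these genes GR3 was the clone that differed least from the parental line. MFAP5 and DSG3 were the reverse case, near the parental level in GR1 and GR4. MFAP5, a microfibril protein of the matrix, read 5.78 units in parental cells, 6.47 in GR1, 76.9 in GR3 and 6.94 in GR4, and its second probe was apart in the same way. DSG3, a desmosomal cadherin, read 5.29, 3.82, 33.3 and 3.56 units. Also among the 12 highest were CPE, a prohormone carboxypeptidase, at 10.3 units in GR3 against 1.15 and 1.66, and a probe labelled HOP, a symbol that stands for several genes, at 9.77 units against 1.64 and 1.78.

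MMP1 was the gene farthest below both clones. MMP1, the interstitial collagenase, read 23.7 units in parental cells, 773 in GR1, 141 in GR3 and 917 in GR4. GR3 was 5.47-fold below the nearer clone, with a log2 difference of −2.57 ± 0.19 (SE), and still 5.96-fold above the parental array. MMP7, matrilysin, read 27.6, 54.1, 13.1 and 75.3 units, so that GR3 lay below the parental array and both clones above it. These were the 2 of 25 measured matrix proteases and inhibitors that were apart, both below (0.381% of all genes). The list's median log2 difference was 0.06, against 0.05 over all genes. S100A8, a calcium-binding protein of myeloid and squamous cells, read 26.5 units in parental cells, 14.98 in GR1, 2.88 in GR3 and 15.7 in GR4. TCN1, a vitamin B12-binding protein, read 93.7, 42.9, 9.79 and 49.5 units, and SERPINB3, a squamous cell protease inhibitor, 61.4, 56.7, 10.8 and 40.4 units. GR3 was the lowest of the 4 arrays in each of these 3 genes.

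Other genes were higher in GR1 and GR4 than on the parental array, with GR3 nearer to it. POLR1F, a subunit of RNA polymerase I, was at 102 units in parental cells, 263 in GR1, 55.1 in GR3 and 232 in GR4. KRT6B, a keratin of stratified and wounded epithelium, was at 18.2, 106, 25.2 and 91.3 units. TNIP3, an inhibitor of NF-kappaB signalling, was at 1.498 units in parental cells, 12.998 in GR1, 2.86 in GR3 and 17.8 in GR4. IL1RL1, the receptor of interleukin 33, was at 2.41, 32.4, 6.26 and 24.1 units. AGTR1, the angiotensin II receptor, had no value on the parental array and read 26.8 units in GR1, 4.96 in GR3 and 22.4 in GR4. A probe labelled DEFB4, a symbol shared by several genes, read 10.4, 97.6, 23.8 and 96.0 units in parental cells and the 3 clones in that order. Of the genes with a parental value, POLR1F alone had GR3 below it.

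**Figure D2:**
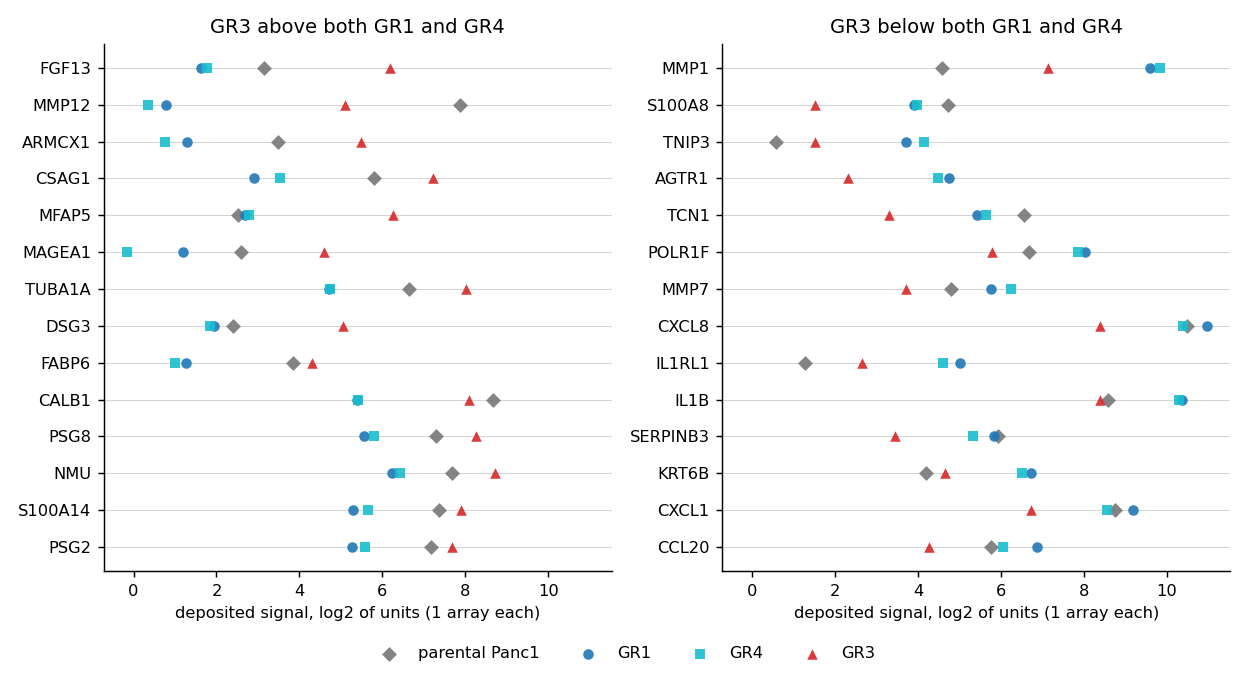
Log2 of the deposited signal of 28 named genes on the 4 arrays, 14 with GR3 above both other clones (left) and 14 below (right), each point 1 array. GR1 and GR4 lie close together in most rows, while the parental array lies on the side of GR3 in some (CALB1, IL1B) and on the side of the other clones in others (MFAP5, SERPINB3).

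The parental array divided the 237 genes. In 64 of them GR3 was within 2-fold of the parental array while GR1 and GR4 were both at least 2-fold from it on the same side, so the parental level was kept in GR3. In 52 genes the reverse held, with GR3 alone at least 2-fold from the parental array. All 3 clones had moved the same way in 43 genes, with GR3 nearer to the parental array in 33 and farther in 10. The 6 genes named above lay on opposite sides, 59 fitted none of these classes, and 13 had no parental value. Over the 224 genes with a parental value, GR3 was nearer to it than both other clones in 126.

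Cytokines and chemokines of the NF-kappaB response formed the list with the most genes apart below. These are secreted signals that carcinoma cells produce when interleukin 1 or other stimuli activate NF-kappaB, and several of them attract neutrophils. Of 37 members measured, 11 were apart below and 2 above, 27 were lower than in both clones, and the median log2 difference was −0.50 (1.41-fold lower). Over all genes the median was 0.05, 31.05% were below both clones and 1.48% were apart. In the limma fit with a signal-dependent prior, 14 of the 37 passed as lower (2% of all genes) and 3 as higher (3.13% of all genes).

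The interleukin 1 genes kept the parental level in GR3 only. IL1B read 381 units in parental cells, 1313 in GR1, 334 in GR3 and 1256 in GR4 (log2 difference −1.94 ± 0.17, SE). IL1A read 373, 1771, 513 and 1558 units, and IL6, a downstream cytokine, 1086, 3771, 1227 and 2546 units. In all 3, the signals of GR3 and the parental array were within 1.38-fold and those of GR1 and GR4 were more than 2-fold higher. CSF2, the growth factor GM-CSF, read 49.2 units in parental cells, 302 in GR1, 103 in GR3 and 258 in GR4, and so was raised in all clones with GR3 nearest to the parental level. IL24 was dim, at 6.63 units in GR1, 2.28 in GR3 and 9.52 in GR4.

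The neutrophil-attracting CXC chemokines split by their parental side. CXCL2 read 559 units in parental cells, 1400 in GR1, 523 in GR3 and 1197 in GR4, and CXCL3 read 88.4, 347, 75.1 and 227 units, so that GR3 stood at the parental level. CXCL8, interleukin 8, read 1437, 2013, 335 and 1334 units, and CXCL1 read 428, 585, 106 and 376 units. For these genes GR1 and GR4 stood near the parental level and GR3 was below all other arrays, 3.98-fold below the nearer clone for CXCL8 and 3.56-fold for CXCL1. CXCL6 (149, 80.6, 14.9 and 47.4 units) and CCL20, a chemokine for dendritic cells and T helper cells (53.8, 117, 19.3 and 65.9 units), were also lowest in GR3. CXCL5 read 529 units in parental cells, 2076 in GR1, 892 in GR3 and 1257 in GR4 and was not apart. Of the 12 CXC chemokine genes measured, a family singled out after its values were seen, 5 were apart below (0.381% of all genes). These 5 are already among the 11 of the list. The interferon-induced CXCL10 was at 5.86, 9.10 and 11.4 units in GR1, GR3 and GR4.

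Among the regulators on the list, NFKBIA, the inhibitor of NF-kappaB, read 3940 units in parental cells, 2182 in GR1, 1283 in GR3 and 1638 in GR4. TNFAIP3, the feedback deubiquitinase A20, was higher in GR3, at 379 units against 256 and 265. The subunits NFKB1, NFKB2 and RELB had log2 differences of −0.21, 0.01 and −0.37 and were not apart. Opposed to the group were CCL28, an epithelial chemokine, at 304, 86.9, 222 and 83.2 units in parental cells and the 3 clones in that order, and the cytokine IL32, at 70.5, 56.7, 146 and 67.8 units.

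Promoter sequences of the 4 most strongly expressed neutrophil chemokines among the genes apart are shown because these genes lie in 1 cluster on chromosome 4 and were all lowest in GR3 among the clones. Each is the 250 bases before the RefSeq start in GRCh38.p14, on the gene's strand, with the NF-kappaB motif GGAATTTCC in capitals. CXCL8 lies at chr4:73740319-73740568 (+ strand), CXCL1 at chr4:73869143-73869392 (+), CXCL2 at chr4:74099196-74099445 (−) and CXCL3 at chr4:74038690-74038939 (−).
CXCL8: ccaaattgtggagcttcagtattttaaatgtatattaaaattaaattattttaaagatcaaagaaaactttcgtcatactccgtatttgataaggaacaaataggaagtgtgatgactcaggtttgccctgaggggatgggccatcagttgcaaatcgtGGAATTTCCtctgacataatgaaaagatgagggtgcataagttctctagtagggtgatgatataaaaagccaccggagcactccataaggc
CXCL1: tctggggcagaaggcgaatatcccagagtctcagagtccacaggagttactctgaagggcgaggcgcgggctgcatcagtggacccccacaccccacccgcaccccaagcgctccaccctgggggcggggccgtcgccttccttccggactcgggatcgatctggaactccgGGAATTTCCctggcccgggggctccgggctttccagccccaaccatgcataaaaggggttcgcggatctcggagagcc
CXCL2: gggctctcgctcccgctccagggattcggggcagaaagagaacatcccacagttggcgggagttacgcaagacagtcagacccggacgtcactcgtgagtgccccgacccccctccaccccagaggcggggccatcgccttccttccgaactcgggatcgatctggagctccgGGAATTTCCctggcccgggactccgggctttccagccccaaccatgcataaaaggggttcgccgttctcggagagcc
CXCL3: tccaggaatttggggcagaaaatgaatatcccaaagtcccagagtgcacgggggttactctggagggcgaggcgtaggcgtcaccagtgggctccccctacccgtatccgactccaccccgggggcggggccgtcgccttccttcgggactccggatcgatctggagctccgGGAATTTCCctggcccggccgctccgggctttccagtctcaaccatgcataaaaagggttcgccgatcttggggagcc
The motif begins 91 bases before the start in CXCL8, 78 in CXCL1 and CXCL3 and 77 in CXCL2. Searched on both strands, these 9 letters occur in 145 of 35116 RefSeq promoters of the same length (0.413%) and, counted by gene, in 0.502% of 27305 genes, in 5 of the 11 genes apart below and in 11 of the 28 list members matched to a promoter. The search used 1 exact form of the motif. The printed promoters of CXCL1, CXCL2 and CXCL3 share long stretches around it, so their matches are not independent. A match is a description of the sequence only.

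Genes of cholesterol and fatty acid synthesis were higher in GR3. The pathway builds sterols from acetyl-CoA through mevalonate and squalene, and its enzymes are induced together by the SREBP transcription factors when membranes are short of sterol. Of 30 genes measured, 6 were apart above and 0 below, and 25 were higher in GR3 than in both clones. Over all genes, 1.1% were apart above and 43.8% were above both. The list's median log2 difference was 0.61 (1.53-fold), against 0.15 for GR1 against GR4. With normexp 3 members of the list were apart above and the median was 0.31. HMGCS1, SQLE and FDFT1 were not among them, at log2 differences of 0.73, 0.89 and 0.67. In the limma fit with a signal-dependent prior, 17 of the 30 passed as higher (3.13% of all genes) and 0 as lower (2% of all genes). Without that prior none of the 30 passed.

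Of the 6 genes apart, 5 encode enzymes of the sterol route and SCD acts on fatty acids. HMGCS1, which makes HMG-CoA, read 100.1 units in parental cells, 129 in GR1, 302 in GR3 and 108 in GR4 (log2 difference 1.35 ± 0.19, SE). MVK, mevalonate kinase, read 105, 99.4, 211 and 93.0 units. SQLE, squalene epoxidase, read 71.2, 88.8, 233 and 68.9 units. In these 3 genes GR3 alone was at least 2-fold above the parental array. FDFT1, squalene synthase, read 923, 627, 1479 and 580.4 units, and MSMO1, a sterol-C4-methyl oxidase, 164, 122, 289 and 128 units. SCD, the stearoyl-CoA desaturase, read 84.2, 65.4, 141 and 36.5 units, with a wider gap between GR1 and GR4. GR3 was the highest of the 4 arrays in all 6 genes.

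Other enzymes of the pathway were higher by less than 2-fold. IDI1 read 359 units in GR1, 595 in GR3 and 326 in GR4, DHCR7, the last enzyme of cholesterol synthesis, 181, 318 and 155 units, and ELOVL5, a fatty acid elongase, 164, 299 and 154 units. The regulators SREBF1 and SREBF2, which encode the SREBP factors, had log2 differences of 0.70 ± 0.18 and 0.76 ± 0.23 (SE). LSS, CYP51A1 and TM7SF2 were the 3 lower members, with log2 differences of −0.10, −0.08 and −0.47. ACAT2, an acetyl-CoA acetyltransferase outside the list and named after its values were seen, was also apart above.

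Promoters are printed for 3 of the enzymes apart, again as the 250 bases before the RefSeq start in GRCh38.p14 on the gene's strand, with CCAAT, the NF-Y box that accompanies SREBP sites in many promoters of the pathway, in capitals on either strand. They lie at chr5:43313413-43313662 (− strand) for HMGCS1, chr4:165327419-165327668 (+) for MSMO1 and chr12:109573544-109573793 (+) for MVK.
HMGCS1: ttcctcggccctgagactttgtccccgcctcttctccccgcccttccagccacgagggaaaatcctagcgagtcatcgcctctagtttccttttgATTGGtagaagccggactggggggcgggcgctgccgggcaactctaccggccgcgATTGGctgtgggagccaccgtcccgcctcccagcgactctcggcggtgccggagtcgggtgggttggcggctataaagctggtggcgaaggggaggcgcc
MSMO1: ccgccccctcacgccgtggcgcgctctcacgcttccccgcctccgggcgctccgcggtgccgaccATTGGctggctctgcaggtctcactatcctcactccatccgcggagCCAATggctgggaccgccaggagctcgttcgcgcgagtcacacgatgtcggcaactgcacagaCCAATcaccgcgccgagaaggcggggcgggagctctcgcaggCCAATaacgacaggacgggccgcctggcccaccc
MVK: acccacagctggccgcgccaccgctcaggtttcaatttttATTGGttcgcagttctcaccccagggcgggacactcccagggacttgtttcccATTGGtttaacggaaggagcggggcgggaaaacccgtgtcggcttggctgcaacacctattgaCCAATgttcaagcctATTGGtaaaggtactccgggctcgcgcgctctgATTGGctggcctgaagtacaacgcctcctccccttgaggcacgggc
CCAAT was found 2 times in HMGCS1, 4 times in MSMO1 and 5 times in MVK. It occurs in 11240 of the 35116 promoters of this length and in 37.0% of genes, in 21 of the 27 list members matched to a promoter and in 4 of the 4 matched genes apart. The sterol element letters TCACNCCA occur in 3.20% of all promoters and 3.92% of genes, in 3 of the 27 list members and in MSMO1 and MVK. No role of these letters in the difference between clones was tested.

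**Figure D3:**
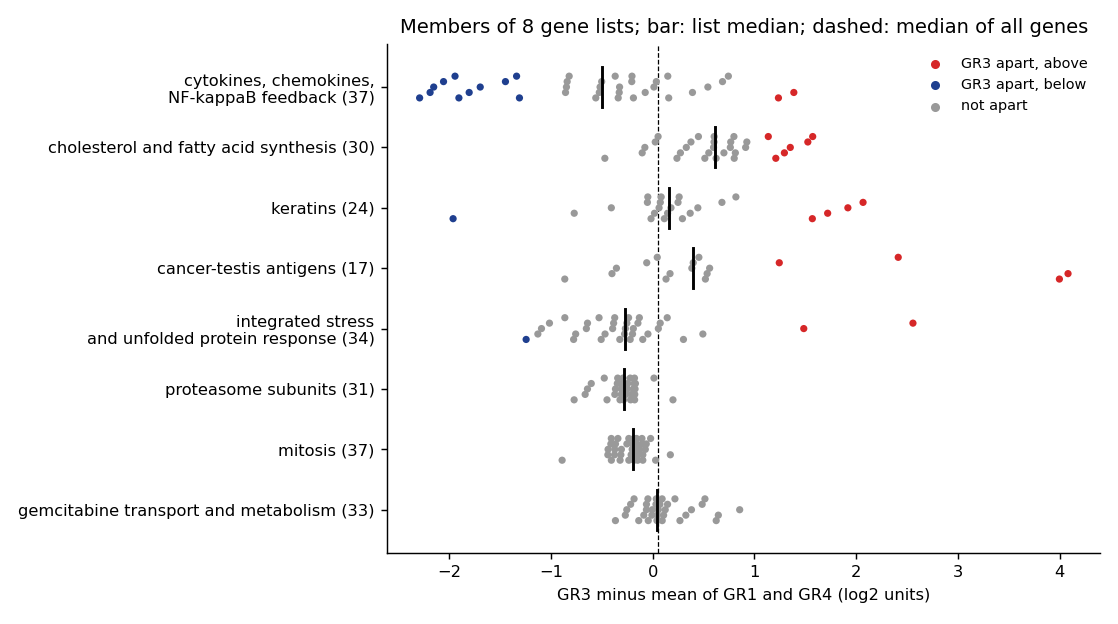
Log2 difference between GR3 and the mean of GR1 and GR4 for the members of 8 gene lists, 1 point a gene, with the number measured in brackets, a bar at each list's median and a dashed line at the median of all genes, 0.05. Cytokine genes reach down to −2.29 and the bulk of cholesterol genes lies right of the dashed line, while proteasome and mitosis genes form narrow groups left of it.

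Pregnancy-specific glycoproteins formed the most uniform group of high genes, although they were singled out after their values were seen. These immunoglobulin-like proteins are secreted by the placenta and their genes lie in 1 cluster on chromosome 19. Of 6 measured, 5 were apart above (1.1% of all genes), with a family median of 4.98-fold. PSG8 read 156 units in parental cells, 47.1 in GR1, 305 in GR3 and 55.9 in GR4. PSG2 read 143, 38.8, 206 and 47.9 units, and PSG3 read 89.4, 15.9, 88.8 and 19.3 units, and in these 3 genes GR3 was within 2-fold of the parental level while GR1 and GR4 were lower. PSG1 (16.4 units in parental cells, 7.59 in GR1, 43.4 in GR3 and 10.3 in GR4) was 2.66-fold above the parental level in GR3, and PSG5 (104, 5.12, 35.4 and 6.74 units) was 2.93-fold below it. PSG11 was at 9.22, 11.4 and 8.28 units in GR1, GR3 and GR4. The probes of this family may share sequence, and how far one gene's RNA reached another's probe was not tested. The same holds for the MAGEA, keratin, tubulin and CXC chemokine probes. CGA, the common subunit of the placental and pituitary glycoprotein hormones, also named after its values were seen, had 56.4 units in parental cells, 10.5 in GR1, 61.9 in GR3 and 15.2 in GR4.

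Cancer-testis antigens, germline genes that many tumours express, had 4 of 17 measured members apart above and a median log2 difference of 0.40. MAGEA1 read 6.02 units in parental cells, 2.27 in GR1, 24.1 in GR3 and 0.89 in GR4. CSAG1, another X-linked antigen gene, read 56.1, 7.45, 149 and 11.6 units, MAGEA3 read 15.6, 8.21, 46.1 and 9.15 units and MAGEA12 read 32.3, 20.3, 49.5 and 21.6 units. MAGEA4 read 41.1 units in GR1, 49.8 in GR3 and 50.4 in GR4, and PRAME, on chromosome 22, went the other way at 357, 168 and 262 units. The list's direction depended on dim genes, since its median was −0.37 over members with at least 25 units on all 3 clones. On the X chromosome, where the MAGEA genes lie, 16 of 593 genes were apart above (2.70%, against 1.1% of all genes) and 0 below, FGF13, ARMCX1 and the histone demethylase gene KDM6A (65.2, 68.8, 149.5 and 62.4 units in parental cells and the 3 clones in that order) among them.

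Keratins, the intermediate filaments of epithelia, differed in single members. KRT81, a hair keratin, read 366 units in parental cells, 1212 in GR1, 5545 in GR3 and 1777 in GR4, so it was raised in all clones and most in GR3. KRT34, another hair keratin, read 3.90, 10.4, 30.5 and 8.27 units. KRT17, of basal and stressed epithelium, read 87.2, 37.3, 223 and 75.9 units with a 2.04-fold gap between GR1 and GR4, and KRT23 was dim throughout. Of the 24 measured, 4 were apart above (1.1% of all genes) and KRT6B below (0.381% of all genes). KRT18 and KRT19, the main keratins of ductal cells, had log2 differences of 0.37 and 0.82 and were not apart.

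Other lists had 1 or 2 members apart, where 1.48% of all genes were apart. The type IV collagen genes COL4A3 and COL4A4, whose products join in 1 basement membrane network, were both above the other clones, with COL4A4 at 204 units in parental cells, 24.1 in GR1, 97.6 in GR3 and 29.6 in GR4. SLC2A3, the glucose transporter GLUT3, read 1332, 165, 567 and 151 units, the only glycolysis gene of 26 apart. WNT5A, a non-canonical WNT ligand, read 91.3, 30.9, 123 and 33.0 units, and S100A14, a calcium-binding protein of epithelia, 164, 39.0, 238 and 50.5 units. GR3 kept the parental level of WNT5A and S100A14 and part of it in the other genes. EREG, an EGF receptor ligand, was lower, at 109 units in GR3 against 277 and 253, and 32.5 in parental cells. CDKN2B, which encodes the CDK4 inhibitor p15, was at 456 units in GR3 against 186 and 195, and 365 in parental cells. GR3 was thus 1.25-fold above the parental array, with GR1 1.97-fold and GR4 1.87-fold below it.

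Genes of the integrated stress and unfolded protein response were mostly lower in GR3, while single stress genes were above the other clones. NUPR1, a stress-induced chromatin factor, read 102 units in parental cells, 13.5 in GR1, 102 in GR3 and 22.2 in GR4. SHMT2, the mitochondrial serine hydroxymethyltransferase, read 320, 856, 344 and 773 units, again at the parental level in GR3 alone. Over the 34 measured genes of the integrated stress and unfolded protein response the median log2 difference was −0.27. Of them, 27 were lower than the mean of GR1 and GR4 (42.1% of all genes) and 23 were below both clones (31.05% of all genes). Only 3 were apart (1.48% of all genes). VLDLR, a lipoprotein receptor, was the third of these 3, above the other clones at 6.24 units against 2.45 and 2.03. In the limma fit with a signal-dependent prior, 9 of the 34 passed as lower (2% of all genes) and 2 as higher (3.13% of all genes). MT1M was the single metallothionein of 10 apart, at 64.7 units in parental cells, 14.4 in GR1, 87.2 in GR3 and 16.7 in GR4. DNAJA4, a co-chaperone, was the only heat shock gene of 25, at 16.9 units in GR3 against 3.32 and 3.84.

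A few further members of small groups were above the other clones at low signal. POSTN, periostin, read 6.83 units in GR3 against 0.94 in GR1 and 1.44 in GR4, and TAGLN, an actin-binding protein of smooth muscle, 18.8 units against 8.09 and 7.12. LTBP1, which holds latent TGF-beta in the matrix, read 17.7 units against 5.17 and 5.95. Of the markers of other cell types, LCP1, the actin bundler L-plastin, which carcinoma cells can express too, read 3.60 units in parental cells, 12.1 in GR1, 81.3 in GR3 and 27.4 in GR4. LUM, the matrix proteoglycan lumican, read 270.1, 116, 402 and 189 units. Summed over the 11 leukocyte markers on the array, the signal was 285 units in the parental line, 209.8 in GR1, 340 in GR3 and 215 in GR4, and 1 to 3 of them reached 25 units. Over the 9 fibroblast markers the sums were 420, 257, 540 and 324 units, and 3 reached 25 units on each array. Single markers differed in level, with COL1A1 and COL3A1 under 3 units on all arrays and CD3D at 12.6 to 13.5 units. The highest leukocyte marker on each array was at 158 units in parental cells, 132 in GR1, 177 in GR3 and 120 in GR4. What part these markers have in other results was not tested.

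Proteasome and mitosis genes were lower in GR3 by small amounts. Over all genes, 42.1% were lower than the mean of GR1 and GR4, 31.05% were below both and 1.48% were apart. Of 31 proteasome subunit genes, 29 were lower in GR3 than the mean of GR1 and GR4, 28 were below both clones and 0 were apart, with a median log2 difference of −0.29 (1.22-fold). PSMC2 was the lowest, at 968 units in parental cells, 2120 in GR1, 1208 in GR3 and 2004 in GR4. Of 37 mitosis genes 35 were lower, 30 of them below both clones, with a median of −0.20 and 0 apart. ECT2, a cytokinesis factor, had the largest difference, at 258 units in GR1, 127 in GR3 and 214 in GR4. Ribosome biogenesis genes had a median of −0.21, with 23 of 28 lower, whereas 40 of 52 cytosolic ribosomal protein genes were higher (median 0.12) and DNA replication genes were divided, 23 higher and 24 lower. With normexp the median was −0.06 for both the proteasome and the ribosome biogenesis list and −0.22 for mitosis. In the limma fit with a signal-dependent prior, 3 proteasome, 1 mitosis and 2 ribosome biogenesis genes passed as lower, against 2% of all genes.

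Genes that handle gemcitabine had a median log2 difference of 0.05, the same as over all genes. Of 33 measured members 0 were apart. With 1.48% of all genes apart, a list of this size need not hold any, so this count says little about the group. DCK, the kinase that activates the drug, read 42.0 units in parental cells, 58.3 in GR1, 65.0 in GR3 and 67.1 in GR4. CDA, the deaminase that inactivates it, read 785, 226, 355 and 228 units, with a log2 difference of 0.65 ± 0.16 (SE). The transporter SLC29A1 read 18.6, 39.3, 45.6 and 46.4 units. The ribonucleotide reductase genes RRM1 and RRM2 read 1032 and 1905 units in GR1, 1100 and 1688 in GR3, and 958 and 1596 in GR4. The remaining genes fixed for this description had log2 differences between −0.27 for SAMHD1, which degrades deoxynucleotides, and 0.22 for the dim transporter SLC28A3. For these, the change shared by all clones relative to the parental array was larger than the difference between clones in several genes, for instance NT5E (247 units in parental cells, 836, 850 and 975 in GR1, GR3 and GR4) and NT5C3A (1830, 466, 561 and 593 units). With normexp the log2 difference of NT5E was −1.197, against −0.09 as reported, and 1 gene of the list was apart above and 1 below. In the limma fit with a signal-dependent prior 3 of the 33 passed as higher (3.13% of all genes) and 0 as lower (2% of all genes). CTPS1, CTP synthase, was the largest of the 3, at 200.1 units in GR1, 363 in GR3 and 201 in GR4.

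By their medians, interferon-stimulated genes separated GR1 from GR3 and GR4 rather than GR3 from both other clones. GR3 had a median of 0.28 above the mean of GR1 and GR4, with 38 of 44 higher. GR1 and GR4 differed more from each other (median log2 difference of GR1 minus GR4 −0.48). Of the 44 genes 0 were apart (1.48% of all genes), a count too close to that share to say much. In the limma fit with a signal-dependent prior, 5 of the 44 passed as higher (3.13% of all genes) and 0 as lower (2% of all genes). GR3 was higher than GR1 by a median of 0.50 and higher than GR4 by 0.06. It was above both clones in 28 of the 44 genes, where 43.8% of all genes were. Of the 48 gene lists examined, 29 held no gene apart.

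Whole stretches of chromosomes differed between GR3 and the other clones by small amounts. Chromosomes 6 and 8 each had a median log2 difference of 0.20 and chromosomes 12 and 18 of 0.13 and 0.12, while chromosome 7 had −0.08 and chromosome 3 −0.01. The medians of GR1 minus GR4 lay between 0.04 and 0.11 on all chromosomes. On chromosome 6, 66.8% of 855 genes were above the median of all genes, and on chromosome 7, 33.9% of 704.

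**Figure D4:**
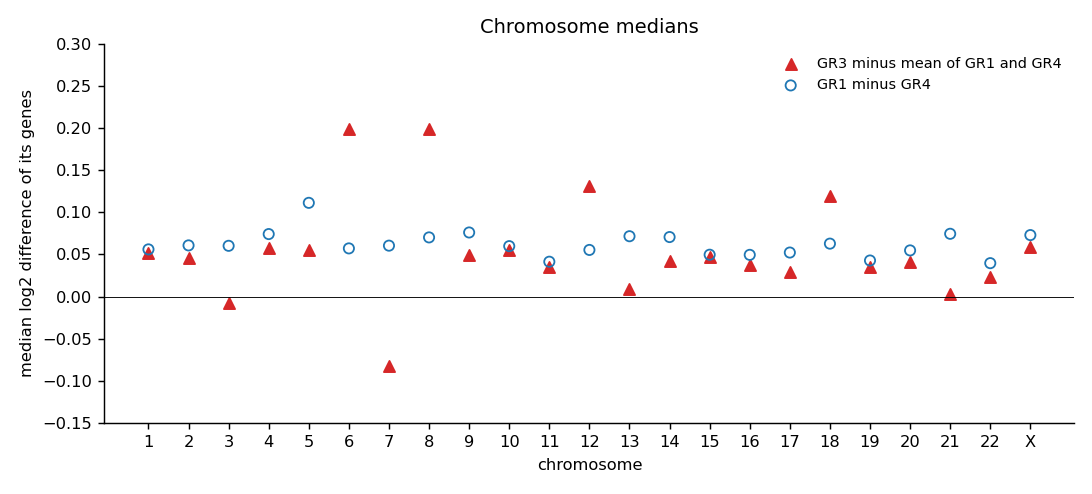
Median log2 difference of the measured genes of each chromosome, for GR3 minus the mean of GR1 and GR4 (triangles) and for GR1 minus GR4 (circles). The triangles of chromosomes 6 and 8 stand at 0.20 and that of chromosome 7 at −0.08, while the circles form a nearly level band.

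Running medians over 25 neighbouring genes placed these shifts. Between GR1 and GR4 the window medians stayed between −0.20 and 0.30 over all 15375 windows, and for GR3 they ranged from −0.47 to 0.52. Beyond the range of GR1 against GR4 lay 384 windows higher and 252 lower in GR3. That range depends on the order in which GR1 and GR4 are subtracted. With the sign turned, a range of −0.30 to 0.20 chosen after seeing the data, 1154 windows were higher and 110 lower. The 384 higher and 252 lower windows joined into 24 runs with 1447 genes. Of these, 13 higher runs lay on chromosomes 2, 6, 8, 12 and 18 and 11 lower runs on chromosomes 3 and 7. Turning the sign eases the limit for higher windows, so all 13 higher runs pass it by construction. Only the lower runs met a stricter limit, −0.30, and 4 of the 11 reached it. Gene order was taken from the GRCh38.p14 annotation.

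On chromosome 6 the run from RSPH9 to HDDC2 held 239 genes, of which 197 were higher in GR3, with a median of 0.32 (1.25-fold). Its genes were 0.33 above the parental array in GR3 and 0.02 above it in the mean of GR1 and GR4. The runs from SAMD3 to KATNA1 (70 genes, median 0.33) and from RAET1L to PDCD2 (78 genes, median 0.33) followed it towards the chromosome's end. In these runs GR3 was farther above the parental array than the mean of the others. Over all genes the median against the parental array was 0.11 in GR3, 0.08 in GR1 and 0.003 in GR4. On chromosome 8 the run from UBXN8 to MCM4 (64 genes, median 0.32) had GR3 0.32 above the parental array and the other clones 0.10 below it on the log2 scale, with a median of −0.10. Across the first genes of that chromosome, from OR4F21 to SLC18A1 (63 genes, median 0.31), GR3 was 0.09 above the parental array and the others were at −0.11. There GR3 lay near its median over all genes, and the mean of the others lay below theirs.

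The 3 longest lower runs were among those 4 and differed in their parental side. From IL12A to TRA2B on chromosome 3, 69 of 94 genes were lower in GR3, with a median of −0.26. Relative to the parental array the run stood at −0.03 in GR3 and at 0.27 in the mean of GR1 and GR4. Set beside the medians over all genes, GR3 was lower than its 0.11 and the other clones were higher than theirs. The longest lower run on chromosome 7, from TRIM56 to NUP205, held 137 genes with a median of −0.24, and stood at −0.03 in GR3 and 0.08 in the other clones. From ZNF138 to VPS50 on the same chromosome, 117 genes had a median of −0.21, with GR3 at −0.19 against the parental array and the others at 0.02.

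Of the genes apart, 233 had a place on a chromosome and 30 of them (12.9%) lay inside a run, where 9.09% of all placed genes did. Among these 30 were CALB1, CGA and FDFT1 in higher runs, and the lone exception in direction was CD36, above the other clones in a lower run. Runs and genes apart were read from the same differences between clones. Neither the share inside runs nor the shared direction is thus independent of how the runs were found. PSMC2 and PSMD2 (1261 units in GR1, 705 in GR3 and 909.8 in GR4) lie in lower runs, and ECT2 in the same run as PSMD2, whereas PSMB1, the proteasome gene with the highest difference (0.20), and the mitosis gene TTK (0.17) lie in higher runs on chromosome 6. PSMD14, in a higher run on chromosome 2, was nonetheless lower in GR3 by a log2 difference of −0.22. Outside the runs, 26 of 27 proteasome genes and 34 of 35 mitosis genes were lower, and the 26 cholesterol and fatty acid synthesis genes there had a median of 0.60. DNA copy number was not measured in these samples.

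**Figure D5:**
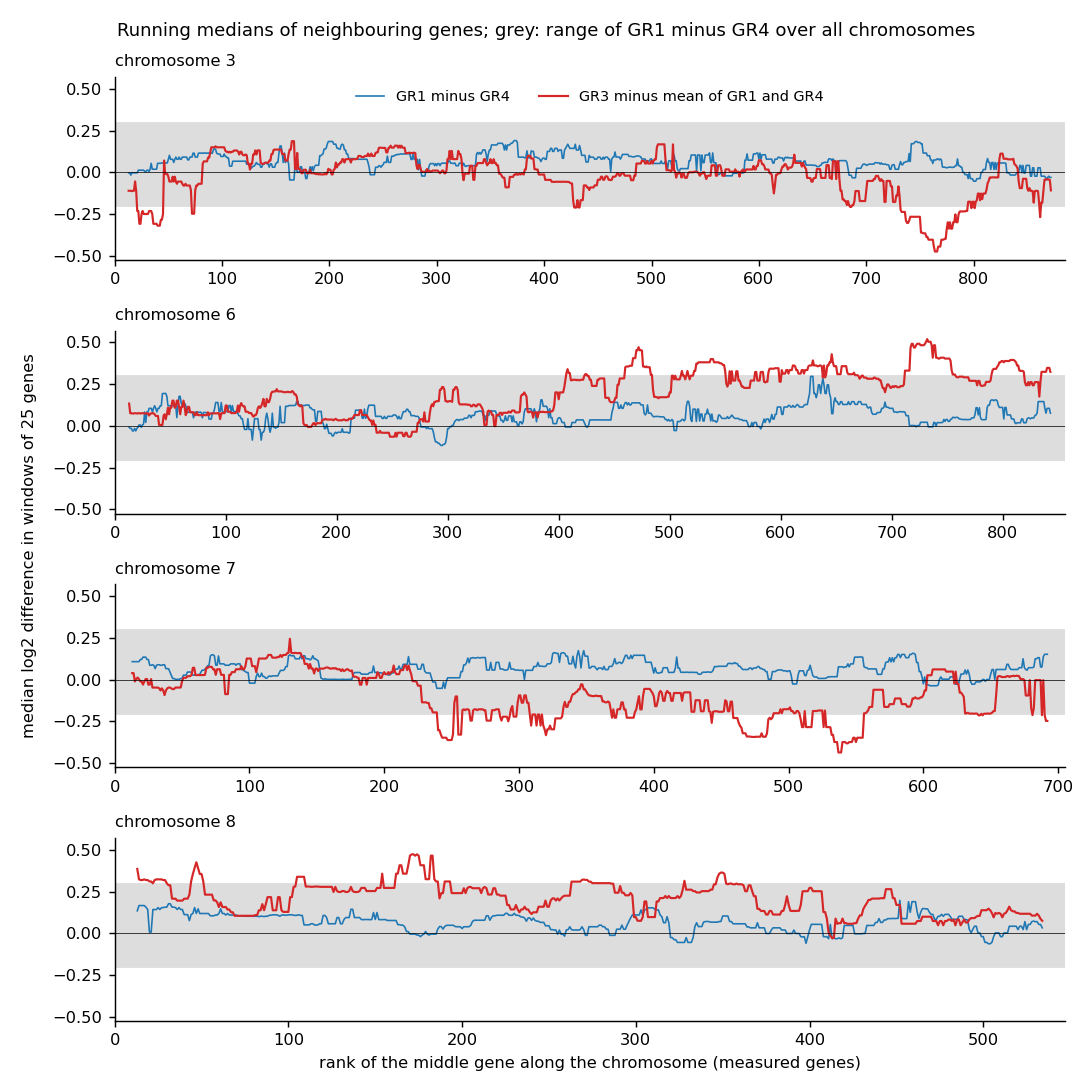
Running medians of the log2 difference in windows of 25 neighbouring genes along chromosomes 3, 6, 7 and 8, plotted by the rank of the middle gene, for GR3 minus the mean of GR1 and GR4 (red) and GR1 minus GR4 (blue), with the range of GR1 minus GR4 over all chromosomes in grey (−0.20 to 0.30). The red line leaves the grey band upward over much of the second part of chromosome 6 and downward on chromosomes 3 and 7, and the blue line stays within it.

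Some probes had a value on one side only, and lie outside the counts above. On GR3 and on neither other clone 413 probes had a value, and 146 had one on GR1 and GR4 but not on GR3. None of them reached 25 units, and their medians were 1.18 and 1.49 units, close to the lowest deposited values of 0.83 to 0.90 units that served as the bound. RFTN2, a raftlin, at 22.8 units in GR3, was at least 26.4-fold above the mean of the bounds of GR1 and GR4, RNF157, a ubiquitin ligase, at least 7.60-fold and RAD21L1, a meiotic cohesin subunit, at least 5.55-fold. GCNT7, PROM2 and HTR2C followed with at least 4.07-fold, 3.96-fold and 3.87-fold. In the other direction ASIP, the agouti signalling protein, at 4.36 units in GR1 and 3.57 in GR4, was at least 4.41-fold lower in GR3 than the mean of GR1 and GR4. DPYSL3, AKR1B10, IL16, TTC16 and TCEAL7 were lower by at least 3.81-fold to 2.46-fold. These are values of single dim probes. Another probe of RNF157, GCNT7, PROM2, DPYSL3 and AKR1B10 had a value on all 3 clones and gave log2 differences of −0.06, −0.11, 0.01, −0.39 and 0.16, none of them apart.

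Sizes depended on how dim signals were handled. The normexp setting changed several choices at once, since it used the scanner's spot and background columns, an offset of 50 and quantile normalization. The scanner's background column followed the spot signal, with a Spearman correlation across the 27456 spots of an array of 0.925 to 0.957 over the 4 arrays. The median size of the 57 named genes apart was a log2 difference of 2.19 as reported, 1.24 with 25 units added and 0.71 with normexp, and 56 kept their sign with normexp. Of these genes, 25 had at least 25 units on all 3 clones, and their median size was 1.94 as reported and 1.02 with normexp. For the other 32 it was 2.36 and 0.36. CXCL8 (−2.50), CXCL1 (−2.09), IL1B (−1.86), KRT81 (1.82) and PSG8 (1.98) had values near those reported, but other genes with strong signals did not, with −0.84 for MMP1, 0.73 for PSG2 and 0.09 for CDKN2B. Among the cytokines, CCL20 went to −0.97, 6 list members were apart below and 0 above, and the list median was −0.19. DSG3 changed sign to −0.33. Of the 237 genes apart 23 were apart the same way in that setting. The runs had medians of at most 0.09 in size, with 23 of 24 keeping their sign.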

How the data were processed

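Transcripts of parental Panc1 cells and of clones GR1, GR3 and GR4 were hybridized to 4 single-dye Toray 3D-Gene arrays. Per the labels' design text and the values, the authors deposited an intensity for each probe, which is the spot signal less the mean blank-spot signal, scaled by 1 factor per array to a median of 25 units. Cells of that table are empty where a spot was not kept. The scanner files hold spot and background intensity per the file headers, and they served for an alternative only. No genome build enters the values. How background and scaling were handled bears on dim genes most, since a few units subtracted or added change their ratio.

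From there, values were taken as log2 for the 21885 of 24460 gene probes with a value on all 3 clones. Of the probes, 20236 carried 1 symbol, 0 several and 4224 none; 17238 symbols were current in RefSeq GRCh38.p14, 2899 were updated through synonyms, and 98 ambiguous and 1 unmatched symbol were kept as on the array. Where several probes named 1 of the 16024 genes, the brightest stood for it. limma 3.58.1 in R 4.3.3 (lmFit, eBayes, two-sided, Benjamini-Hochberg over all probes, threshold 0.05) tested GR3 against GR1 and GR4, and was tested on simulated data. Sizes were described by the 2-fold rule for genes apart. The 48 gene lists, the members and the rule for named genes were chosen with earlier results of these data known. That rule takes the 12 highest and 12 lowest genes apart by distance to the nearer clone, the 6 highest and 6 lowest with at least 25 units, up to 4 genes apart per list, 14 fixed gemcitabine genes, the 6 largest bounds on each side, and the ends of chromosome runs. Of the named genes, DEFB4 and HOP have an ambiguous symbol. Genes named outside it were chosen after their values were seen. MVK, SCD, IL1A, IL6, IL24, CSF2, CXCL2, CXCL3, CXCL6, IL32, CCL28, KRT23 and the genes of the lists that were not apart are such genes, named to describe their list. Alternatives were quantile normalization, normexp with an offset of 50, a minimum of 25 units, no filter with empty cells at the lowest value of the array, the mean of a gene's probes, 25 units added, other folds and yardsticks, other windows, and each of GR1 and GR4 left out. Promoters are RefSeq sequences of GRCh38.p14, trimmed to the 250 bases before the start. Python 3.11.15, numpy 2.4.6, pandas 2.3.3 and matplotlib 3.10.9 were used.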

Additional observations from a re-analysis of the deposited data

How the results depend on the processing

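Counts of genes apart moved with the fold threshold and with the treatment of dim signals. Genes with GR3 apart numbered 143 with normexp (90 above, 53 below), 72 with at least 25 units (40 and 32), 65 with 25 units added (41 and 24), 916 at 1.5-fold (638 and 278) and 72 at 3-fold (50 and 22). Against a single clone they numbered 446 to 480 (306 to 381 above, 99 to 140 below). The share above was 74.3% as reported, 64.3% with quantile normalization, 62.9% with normexp, 55.6% with at least 25 units and 63.1% with 25 units added. Quantile normalization kept 203 of the 237 genes apart in the same direction. limma's 0 probes became 555 with at least 25 units, 994 with a signal-dependent prior, 73 with no filter, 43 with the mean of a gene's probes and 39 with 25 units added, and stayed 0 with quantile normalization and normexp. With 1 of GR1 and GR4 left out, limma has no residual degree of freedom and was not run. Genes 2-fold apart were 130, 105 and 11 for GR3 and GR1, GR3 and GR4, and GR1 and GR4 with at least 25 units, and 106, 82 and 8 with 25 units added. GR3 and GR4 differed in 241 with normexp, GR1 and GR4 in 269 with no filter. With at least 25 units on all 4 arrays, 20 genes kept the parental level in GR3, 15 had GR3 alone moved, 6 had GR3 nearer and 2 farther, and the last was 17 at 1.5-fold. Probes measured on one side were 0 and 0 at 25 units. Windows higher in GR3 were 634 with quantile normalization, 603 with at least 25 units, 1007 at 50 genes and 154 to 663 against a single clone; windows lower were 630 with at least 25 units, 86 at 15 genes and 630 at 50. Normexp windows, an alternative chosen after seeing the data, gave 33 higher and 122 lower. With the range of GR1 against GR4 turned in sign, also chosen after seeing the data, 1154 windows were higher and 110 lower, and with a symmetric range at its larger end 384 and 110. A gene apart that changed sign, or the median of a list with over 1 gene apart that changed sign and exceeded the spread of GR1 and GR4, was counted as reversed, which held for the cancer-testis median (−0.37 with at least 25 units) and DSG3 (−0.33 with normexp). Without these conditions the medians of 20 of 43 lists changed sign in some setting, 7 of them over 0.1 in size as reported, ABC transporters (0.28 to −0.33) among them. Of all values of list medians and named genes, 711 stayed within the spread of GR1 and GR4, 165 moved beyond it and 2 reversed. Why these values moved was not tested beyond what each setting removes by construction. No paired analysis was possible because the groups compared share no replicate number and each clone has 1 array.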
